A study of Mus musculus with 17 samples.

Results

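The genes described here encode the nuclear-encoded subunits of the mitochondrial respiratory chain and of the ATP synthase. They were taken by gene name: Nduf genes with the letters a, b, c, s or v, the 4 Sdh genes, the Uqcr genes and Cyc1, the Cox4 to Cox8 genes, and the Atp5 genes, with names marked as pseudogenes left out. In all, 83 of the 35841 genes listed in the series carried such a name. By function 35 belong to complex I, 4 to complex II, 9 to complex III, 18 to complex IV and 15 to complex V. Ndufa4 was counted in complex IV, where its protein is found. The other 2, Atp5s and Atp5sl, carry the name but are assembly-related genes and no subunits, and are kept apart as name only.

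RNA was sequenced from 17 libraries of C57BL/6 mice. Of these, 14 came from cultured primary neurons of the brain, in 3 experiments with 2 libraries a group: neurons given ADM against their controls, neurons given the ApoE particle against their controls (set 1), and a further set with neurons given the ApoE particle, neurons given a reconstituted ApoE particle and controls (set 2). Of the hippocampus libraries, 1 was from ApoE shRNA mice with FC, 1 from control shRNA mice with FC and 1 from control shRNA mice without FC. A short hairpin RNA (shRNA) lowers the RNA it matches. ADM and FC are not spelled out in the labels, and the sources used here give no age, dose, time of treatment or cell type that the shRNA reached. Whether both libraries of a group are separate cultures is nowhere stated, so each p-value measures the spread between these samples, which may be technical.

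Complexes I to IV pass electrons from NADH and succinate to oxygen. Complexes I, III and IV also pump protons across the inner mitochondrial membrane, and complex V uses the proton gradient to make ATP. Neurons draw most of their ATP from this chain, because ion pumping and synaptic transmission are costly. A small core of subunits is encoded in the mitochondrial genome, and all others come from nuclear genes, which are the ones counted here. Most nuclear subunits are present in every tissue, but complex IV also has isoforms with a narrow range: Cox6a2 and Cox7a1 in heart and skeletal muscle, Cox8b in muscle of rodents, Cox6b2 and Cox7b2 in testis, and Cox4i2 in lung and under low oxygen. Cox6a2 is also known from parvalbumin interneurons of the mouse brain.

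The results turn on 2 of these isoforms, Cox6a2 and Cox6b2, and both have a common partner, Cox6a1 and Cox6b1. Cox6a2 and Cox6a1 encode alternative versions of the same complex IV subunit, and their coding sequences are shown, whole for Cox6a2 (291 bases without the stop codon) and the first 300 of 336 bases for Cox6a1, because reads of one must be told from reads of the other. Cox6a2 is spliced from 3 coding exons at chr7:128205732-128206295 (minus strand) and Cox6a1 from 3 coding exons at chr5:115345846-115348950 (minus strand), both in GENCODE M21 on GRCm38. Capitals mark bases without an identical partner in a global alignment of both.
Cox6a2: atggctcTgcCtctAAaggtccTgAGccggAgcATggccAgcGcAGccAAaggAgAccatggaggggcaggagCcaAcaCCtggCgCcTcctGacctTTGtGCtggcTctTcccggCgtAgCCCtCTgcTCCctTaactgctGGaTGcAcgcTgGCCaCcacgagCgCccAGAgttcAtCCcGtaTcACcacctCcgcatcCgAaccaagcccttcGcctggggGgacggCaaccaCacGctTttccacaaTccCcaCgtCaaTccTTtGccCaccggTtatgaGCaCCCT
Cox6a1: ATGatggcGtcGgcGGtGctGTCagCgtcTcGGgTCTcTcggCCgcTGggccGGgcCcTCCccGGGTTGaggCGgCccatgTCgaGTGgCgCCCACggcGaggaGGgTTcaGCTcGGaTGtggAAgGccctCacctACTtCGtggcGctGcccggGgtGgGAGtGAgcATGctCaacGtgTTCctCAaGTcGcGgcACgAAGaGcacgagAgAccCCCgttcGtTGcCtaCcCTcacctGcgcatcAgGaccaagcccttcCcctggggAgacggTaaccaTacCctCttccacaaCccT
Of 290 aligned base pairs, 200 were identical (69%), and the longest stretch found in both was 12 bases. The Cox6a2 gene (chr7:128205435-128206387) also overlaps Itgad on the opposite strand, with 70 of its 680 exon bases in common (10.3%). Whether the counting used strand is not given in the sources used here. Itgad had 0 to 11 counts in each library, and its part in the Cox6a2 counts was not tested.

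The 250 bases before the start of Cox6b2 and of Cox6b1, which encode alternative versions of another complex IV subunit, are shown because only Cox6b2 passed the test in a neuron comparison. Both are from RefSeq on GRCm38.p6, at chr7:4753095-4753344 and chr7:30626115-30626364, each on the minus strand, and capitals mark a match to one of 5 motifs known from promoters of respiratory genes.
Cox6b2: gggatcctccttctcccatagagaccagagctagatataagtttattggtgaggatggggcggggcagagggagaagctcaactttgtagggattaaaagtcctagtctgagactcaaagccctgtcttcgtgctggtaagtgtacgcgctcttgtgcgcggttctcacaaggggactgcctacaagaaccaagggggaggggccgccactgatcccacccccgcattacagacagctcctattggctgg
Cox6b1: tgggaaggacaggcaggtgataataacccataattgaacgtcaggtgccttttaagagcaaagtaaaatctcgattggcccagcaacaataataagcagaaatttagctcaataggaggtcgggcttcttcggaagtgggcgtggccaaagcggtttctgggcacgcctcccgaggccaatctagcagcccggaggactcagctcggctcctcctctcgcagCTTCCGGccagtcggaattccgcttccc
The motifs were searched on both strands, and no motif holds another. Cox6b1 held 1 match, to the ETS motif, and the window of Cox6b2 held none. Promoters were found for 69 of the 83 members, and there was no entry for Cox6a2. The NRF1 motif (GCGCA, any base, then GCGC) was present in 13 of the 69 promoters (18.8%), against 3.71% of all 27025 promoters of the table. The ETS motif (CCGGAAG) was in 12 (17.4%, against 7.12%), the ERR motif (AAGGTCA) in 5 (7.25%, against 4.06%), the YY1 motif (AANATGGCG) in 4 (5.8%, against 1.14%) and the cyclic AMP response element (TGACGTCA) in 4 (5.8%, against 1.54%). A match describes the letters in the window and is not evidence of binding.

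Members were measured from raw gene counts, with 14.62 to 19.14 M (mega) counts per library. Levels are given as CPM, counts scaled to the library size, and, wherever genes are compared with each other, as CPM per kilobase of exon. A member was used if it had at least 10 counts in 2 libraries of an experiment (1 library in hippocampus). This held for 79 members in each neuron experiment and 81 in hippocampus. The members that failed were Cox4i2, Cox7b2 and Cox8b in all 3 neuron experiments, Cox7a1 in the ADM experiment and set 1, and Cox7b2 in hippocampus. Libraries of one group differed by more than sampling noise in every neuron group, as a chi-square test of their counts gave 2.61 to 67.8 per degree of freedom, and none was counted as a duplicate. Neuronal markers were present in all neuron libraries (summed level of 8 pan-neuronal markers 4756 to 7231 CPM), along with astrocyte markers (8 genes, 657 to 4307 CPM). The 14 neuron libraries were thus not pure for neurons, and fewer cells of a type and less RNA per cell cannot be told apart in such bulk samples.

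Levels per kilobase differed between complexes. In set 1 controls the median over members was 28.9 CPM per kilobase for complex I, 44.9 for complex II, 50.5 for complex III, 75.6 for complex IV and 41.1 for complex V. Complex I held the lowest median of the 5 complexes in every neuron group, and complex IV the highest. The top members were Atp5a1 and Atp5b, which encode the catalytic alpha and beta subunits of complex V, and Cox6a1 and Cox8a of complex IV: in set 1 controls they stood at 251, 196, 394 and 272 CPM per kilobase. Of the members used, Ndufb2 was lowest in complex I (1.29 to 3.78 CPM per kilobase over all groups) and Atp5l lowest in complex V (1.3 to 2.03). Exon length here joins all annotated exons of a gene, 5628 bases for Ndufb2 and 6443 for Atp5l, and the ranks and complex medians depend on it. In CPM, Ndufb2 was not lowest in every group. Ndufa3 was below it in the hippocampus controls with FC (18.8, against 21.3 for Ndufb2) and without FC (20.2, against 21.2). The same held in ADM controls (8.58, against 11.1) and in ADM neurons (8.71, against 9.79). Many small subunits have near-identical pseudogene copies in the mouse genome, and how reads with several matches were counted is not given in the sources used here, so levels of such genes are uncertain.

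Each tissue isoform stood far below its common partner. In hippocampus from control shRNA mice without FC, Cox6a2 reached 1.06% of Cox6a1, Cox6b2 1.81% of Cox6b1, Cox4i2 1.17% of Cox4i1 and Cox7a1 1.82% of Cox7a2, all per kilobase. In set 2 controls these shares were 0.275%, 4.73%, 0.342% and 1.97%. Cox8b had no count in set 2 controls, and Cox7b2 had 2.

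**Figure D1:**
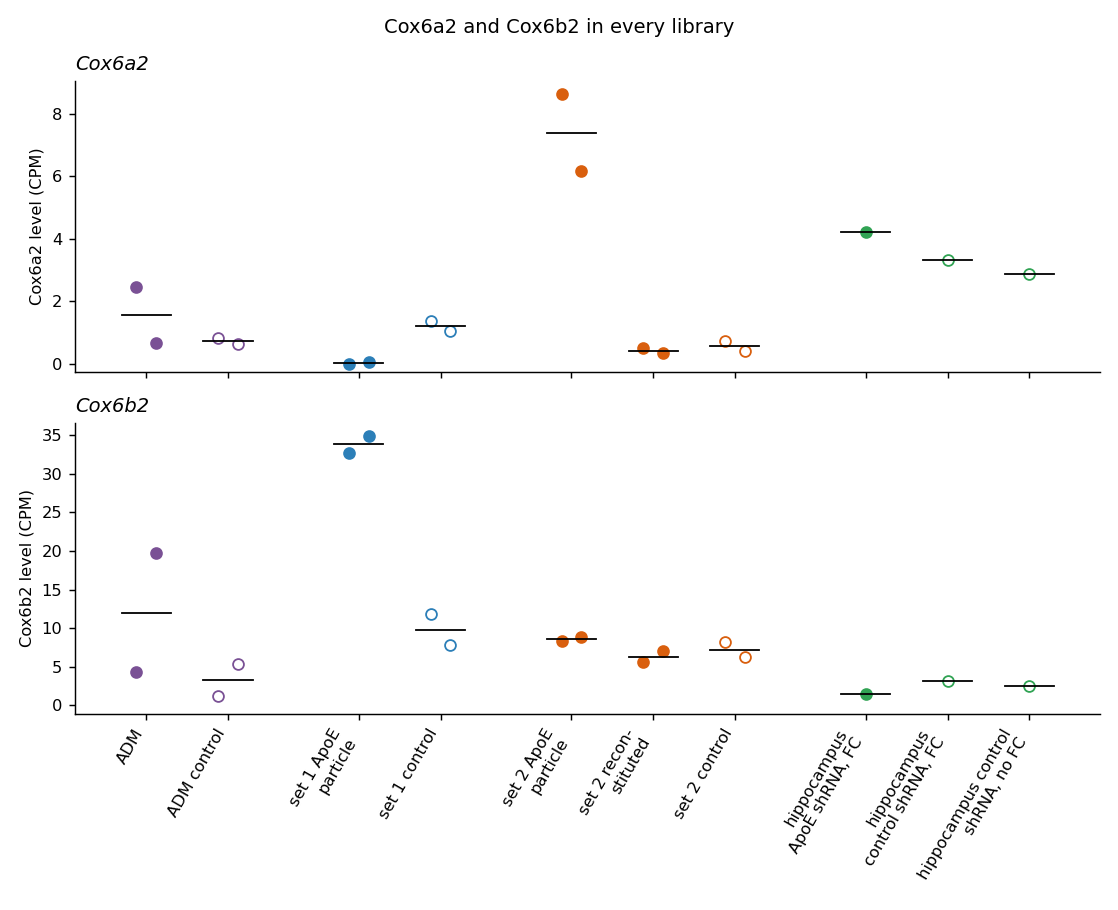
Level of Cox6a2 (top) and Cox6b2 (bottom) in CPM in each of the 17 libraries, by group; points are libraries, black lines group means, open points control groups. Cox6a2 is highest in the 2 set 2 ApoE particle libraries (8.62 and 6.17 CPM) and near 0 in the set 1 ApoE particle libraries, while Cox6b2 is highest in the set 1 ApoE particle libraries (32.7 and 35 CPM).

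In set 1, where neurons given the ApoE particle were compared with controls, the respiratory chain genes stayed close to the controls apart from 2 complex IV isoforms. Cox6a2 fell and Cox6b2 rose. Both were called, at an adjusted p under 0.05 by edgeR's quasi-likelihood test with Benjamini-Hochberg adjustment over all genes, out of 79 members tested (1.27% in each direction). Among all 16475 genes tested 18.9% were called higher and 17.4% lower, 36.4% in all.

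Cox6a2 had 0 and 1 counts in set 1 ApoE particle neurons, against 21 and 18 counts in set 1 controls. The groups did not overlap. The ratio of particle to control counts, scaled to the library sizes, was 0.0261 (exact binomial 95% interval 0.000645 to 0.154, counting error only). The fitted log2 fold change was -5.05 ± 0.83 (SE, adjusted p = 0.00069), a value that depends on the prior count because the particle libraries are almost empty. Cox6a2 met the count minimum of set 1 only through the controls, the group where it is high, so this call is a description of the counts above. Cox6a1, its common partner, had 246 and 230 CPM in particle neurons and 309 and 244 CPM in controls, a log2 fold change of -0.21 ± 0.11 that did not pass the test (adjusted p = 0.172).

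Cox6b2 stood at 32.7 and 35 CPM in set 1 ApoE particle neurons, against 11.9 and 7.76 CPM in controls. Both particle libraries were above both controls, and the log2 fold change was 1.79 ± 0.17 (adjusted p = 2.0e-05). Per kilobase, Cox6b2 reached 17.5% and 20.1% of Cox6b1 in particle neurons, against 5.56% and 4.61% in controls. Cox6b1 itself did not pass the test, at -0.08 ± 0.11 (adjusted p = 0.625).

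The remaining 77 members all had a log2 fold change between -0.29 and 0.22. Over all 79 members 97.5% lay within 0.3 on the log2 scale, against 49.7% of all genes tested, and the median was 0.00 for members and -0.01 for all genes. Complex medians ran from -0.06 (complex IV) to 0.08 (complex II). The particle libraries of 7 members lay above both controls and those of 7 below, 8.86% each way, where 33.8% and 34.0% of all genes did so. Among the catalytic subunits, Atp5b, the beta subunit of complex V, had 867 and 837 CPM in particle neurons and 863 and 794 CPM in controls. Sdha, the flavoprotein that oxidises succinate in complex II, had 259 and 252 CPM in particle neurons and 229 and 224 CPM in controls, a log2 fold change of 0.17 ± 0.09 (adjusted p = 0.143).

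The members' fold changes in set 1 depended on which control was used. Control replicate 2 was below control replicate 1 for 77 of the 79 members, with a median log2 difference of -0.29, while the median over all genes was -0.04. The summed level of the members was 7767 and 7336 CPM in particle neurons, against 8073 and 6979 CPM in controls, so both particle libraries lay between the controls. Without control replicate 1, 22 members were called higher and 1 lower; without control replicate 2, 1 was called higher and 18 lower. Cox6b2 rose under all 10 alternatives tried, with a log2 fold change of 1.51 to 2.14. Cox6a2 was lower under all 10 (-7.30 to -4.26), but each reuses these counts, so this is a description and no further support.

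Markers of other cells moved in this comparison. All 8 microglia markers (summed level 203 and 199 CPM in particle neurons, 61.0 and 48.0 CPM in controls) and all 8 markers of proliferating cells (523 and 628 CPM, against 151 and 140 CPM in controls) rose. Of 8 pan-neuronal markers 7 fell (4964 and 4756 CPM in particle neurons, 6771 and 7130 CPM in controls), as did 7 of 8 excitatory neuron markers. Of 8 astrocyte markers 6 rose and 1 fell. Of 5 mural and vessel markers tested 3 rose, led by Acta2 (2.58 ± 0.20, adjusted p = 7.01e-05), with sums of 318 and 351 CPM in particle neurons and 93.2 and 60.5 CPM in controls. Of 7 oligodendrocyte lineage markers 2 rose and 4 fell. Of 12 inhibitory neuron markers 2 rose and 5 fell, with a median of -0.18: Npy rose (1.09 ± 0.12, adjusted p = 4.83e-05), while Lhx6 (-1.47 ± 0.11, adjusted p = 3.9e-06), Vip (-4.23 ± 0.38, adjusted p = 1.47e-05) and Slc32a1 (-0.74 ± 0.11, adjusted p = 0.000403) fell. Pvalb, which marks parvalbumin interneurons, had 2.88 and 2.36 CPM in particle neurons and 0.389 and 1.18 CPM in controls. The part of these cells in the Cox6a2 and Cox6b2 values was not tested. The other lists of the pathway are to be read against the 18.9% of all genes called higher and 17.4% called lower. In them, edgeR called none of 12 mitochondrially encoded subunits, 1 of 15 complex I assembly factors (Ndufaf5, -0.33 ± 0.11, adjusted p = 0.0338) and 4 of 30 assembly factors of complexes II to V (1 higher and 3 lower). Of 16 regulators of respiratory gene transcription 2 rose: Ppargc1a, a coactivator of mitochondrial biogenesis (0.50 ± 0.10, adjusted p = 0.00259), and Gabpa, an ETS factor (0.32 ± 0.09, adjusted p = 0.0136). Of 13 citric acid cycle enzymes 3 rose, a share near that of all genes, led by Suclg2, a subunit of succinyl-CoA ligase (0.98 ± 0.10, adjusted p = 2.69e-05).

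**Figure D2:**
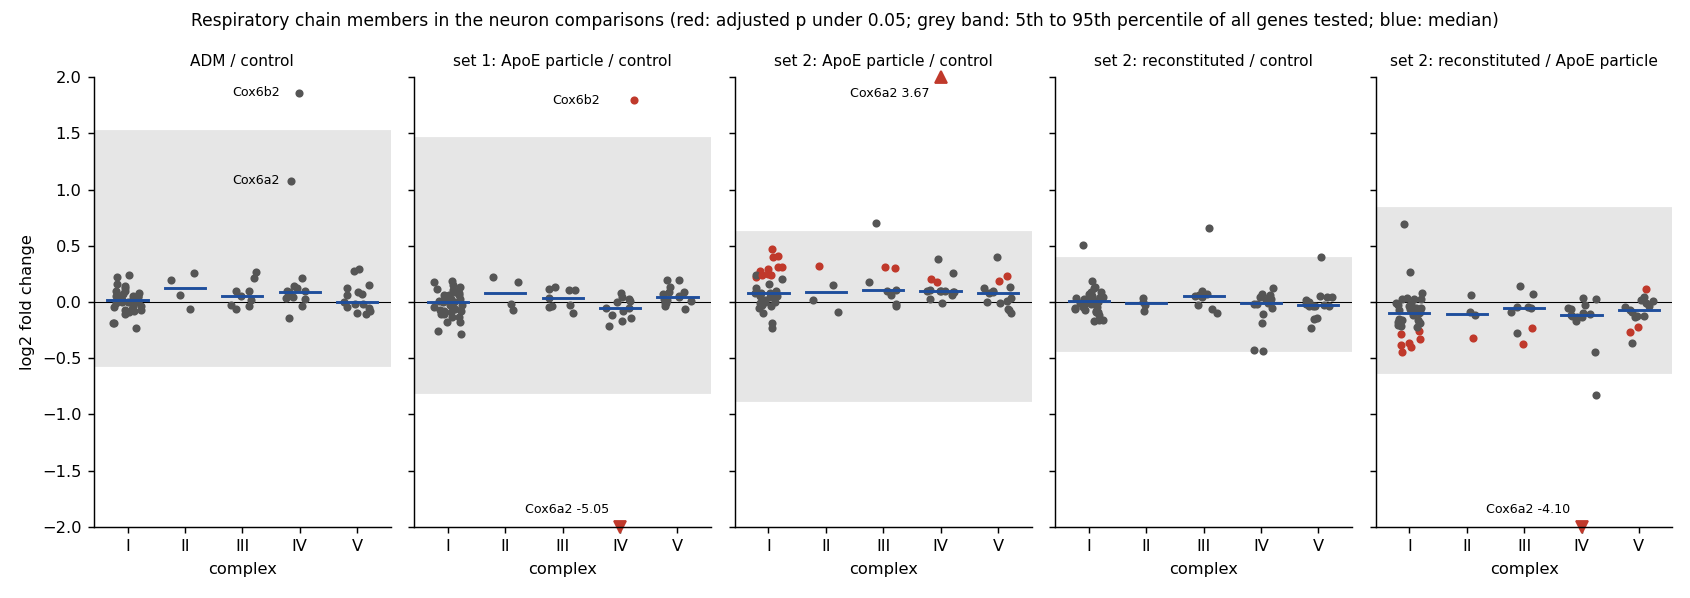
Log2 fold change of each tested member in the 5 neuron comparisons, by complex; red points have an adjusted p under 0.05, blue lines are complex medians, grey bands span the 5th to 95th percentile of all genes tested, and triangles mark Cox6a2 beyond the axis. In set 1 the 77 members other than Cox6a2 and Cox6b2 lie within a narrow band, while in set 2 the 19 red points of the ApoE particle comparison are all above 0.

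In set 2, the same kind of comparison gave other counts: in neurons given the ApoE particle, 19 of 79 members rose and none fell against controls (24.1%), while 10% of all 16388 genes tested were called higher and 12.1% lower. The rises were small, at 0.18 to 0.47 on the log2 scale, except for Cox6a2. Complex I held 11 of them among 35 members, complex II 1 of 4, complex III 2 of 9, complex IV 3 of 15 and complex V 2 of 15. The complex medians were close to each other, from 0.08 to 0.10, and the median over all 79 members was 0.10, against 0.00 over all genes. ApoE particle libraries of 44 members lay above both controls (55.7%, against 30.1% of all genes), and those of 5 lay below (6.33%, against 30.9%).

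Cox6a2 had 146 and 111 counts in set 2 ApoE particle neurons, 8 and 6 in reconstituted particle neurons and 13 and 7 in controls. In CPM this was 7.40 ± 1.73 in ApoE particle neurons and 0.571 ± 0.233 in controls (SD, n = 2 each). The ApoE particle libraries stood apart from all others of the set, and the log2 fold change against controls was 3.67 ± 0.35 (adjusted p = 2.42e-08). Here too 2 libraries with 10 counts were reached only through the ApoE particle group, where Cox6a2 is high. The ratio of the counts was 12.9 (exact binomial 95% interval 8.16 to 21.4, counting error only). Per kilobase Cox6a2 reached 3.94% and 2.73% of Cox6a1 in ApoE particle neurons, against 0.347% and 0.2% in controls. Cox6a1 did not pass the test (0.10 ± 0.06, adjusted p = 0.254), nor did Cox6b2, with 8.39 and 8.84 CPM in ApoE particle neurons and 8.15 and 6.21 CPM in controls (0.26 ± 0.19, adjusted p = 0.359).

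In complex I the members that rose were mostly accessory subunits, which take no direct part in electron transfer. Most of the 35 complex I members tested are accessory as well, so this describes the list and is no result about accessory subunits. Ndufa6, an accessory subunit with an LYR motif, had 47.8 and 46.0 CPM in ApoE particle neurons, against 35 and 32.5 CPM in controls. Its libraries did not overlap, and the log2 fold change was 0.47 ± 0.10 (adjusted p = 0.000996). Ndufa2, with a thioredoxin-like fold, rose by 0.41 ± 0.10 (adjusted p = 0.00298), Ndufc1, a small membrane subunit, by 0.40 ± 0.12 (adjusted p = 0.0153) and Ndufa13, also known as GRIM-19, by 0.31 ± 0.08 (adjusted p = 0.00445). The 2 core subunits among them, which carry iron-sulfur clusters, were Ndufs1, up by 0.22 ± 0.07 (adjusted p = 0.0247) and Ndufs7, up by 0.24 ± 0.09 (adjusted p = 0.0444). Ndufa5, Ndufa7, Ndufa12, Ndufb11 and Ndufs4 were the others.

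In the other complexes, Sdhb, the iron-sulfur subunit of succinate dehydrogenase, had 123 and 130 CPM in ApoE particle neurons and 96.1 and 106 CPM in controls (0.32 ± 0.06, adjusted p = 0.000479). Its partner Sdha did not pass the test, with 190 and 202 CPM in ApoE particle neurons and 214 and 202 CPM in controls (-0.09 ± 0.05, adjusted p = 0.239). In complex III, Uqcrq rose by 0.31 ± 0.06 (adjusted p = 0.000792) and Uqcr10 by 0.30 ± 0.08 (adjusted p = 0.00613), both small subunits without a redox centre. In complex IV, Cox5b rose by 0.18 ± 0.06 (adjusted p = 0.0431) and Cox7a2l by 0.21 ± 0.07 (adjusted p = 0.0282). In complex V, Atp5o, which links the catalytic head to the stator, rose by 0.19 ± 0.06 (adjusted p = 0.0391). Of the 3 genes that encode the same mature c subunit of its rotor, Atp5g1 rose (109 and 110 CPM in ApoE particle neurons, 92.3 and 93.8 CPM in controls, 0.23 ± 0.06, adjusted p = 0.00702), while Atp5g2 (0.09 ± 0.08) and Atp5g3 (0.03 ± 0.06) did not pass the test.

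A pair of members was too variable in set 2 to compare, and both were picked after their values were seen. Ndufs3, a core subunit of complex I, had 93 and 133 counts in ApoE particle neurons, 299 and 43 in reconstituted particle neurons and 175 and 82 in controls, but 594 to 971 counts in each library of the other neuron experiments. Uqcrc1, a core protein of complex III, had 141 and 87.7 CPM in ApoE particle neurons, 123 and 99.2 CPM in reconstituted particle neurons and 81.8 and 58.9 CPM in controls, and its log2 fold change of 0.70 ± 0.36 did not pass the test (adjusted p = 0.304).

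The rise was not restricted to the respiratory chain. Of 78 genes for cytosolic ribosomal proteins 56 rose and none fell, with a median of 0.24, and 5 of 12 mitochondrially encoded subunits rose, among them mt-Cytb (0.22 ± 0.04, adjusted p = 0.000166). Of 17 complex I assembly factors 1 rose (Ndufaf4, 0.38 ± 0.10, adjusted p = 0.00688), and of 30 assembly factors of complexes II to V none was called. The members are short genes, with a median exon length of 1675 bases against 4133 for all genes tested; it was 1587 bases for the 19 that rose and 1715.5 bases for the other 60. Markers of proliferating cells fell (7 of 8, summed level 117 and 132 CPM in ApoE particle neurons, 223 and 182 CPM in controls), as did 6 of 8 astrocyte markers (1039 and 1136 CPM, against 1622 and 1512 CPM in controls) and 6 of 11 inhibitory neuron markers (525 and 522 CPM, against 584 and 582 CPM in controls). In each of the last 2 lists 1 marker rose. Of 8 pan-neuronal markers 3 fell and 0 rose (5906 and 5961 CPM in ApoE particle neurons, 6298 and 6377 CPM in controls). Of 5 mural and vessel markers tested 2 fell and 0 rose (36.4 and 71.4 CPM, against 167 and 107 CPM in controls). Of 8 excitatory neuron markers 1 fell, as did 1 of 6 oligodendrocyte lineage markers, and 0 rose in either list. Pvalb had 11 and 6 counts in ApoE particle neurons and 1 and 11 in controls. Striated muscle markers, of which 4 of 8 were high enough to test, gave 1 call higher (Myh6) and 1 lower (Myh7), with sums of 10 and 11.5 CPM in ApoE particle neurons and 11.4 and 8.82 CPM in controls. The part of these cell types in the members' rise was not tested.

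**Figure D3:**
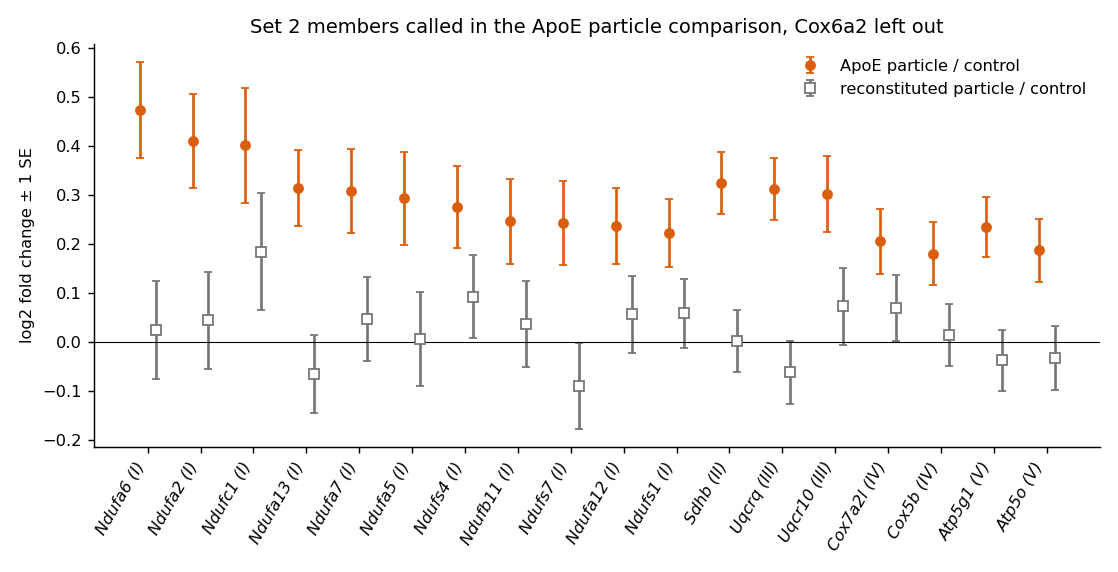
Log2 fold change with 1 standard error in set 2 for 18 of the 19 members called in the ApoE particle comparison (Cox6a2, at 3.67, left out); filled circles give the ApoE particle and open squares the reconstituted particle, each against the same 2 control libraries. The members were chosen by the filled circles, which lie at 0.18 to 0.47, so their height is a description.

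The count of 19 depended on the tool and on single libraries. DESeq2 called 9 of 79 members higher and none lower, where it called 1089 of all 16388 genes higher and 1410 lower. The median log2 fold change over members was 0.118 without control replicate 1 and 0.098 without control replicate 2. It was 0.113 without ApoE particle replicate 1 and 0.085 without ApoE particle replicate 2. Over all genes these medians were -0.007 to 0.008. Fewer than 19 members were called in each of these fits. No alternative called a member lower. The calls of Cox6a2 under the alternatives describe the same counts, which met the minimum only through the ApoE particle group. Cox6a2, Ndufa6, Ndufa2, Ndufa13, Sdhb and Uqcrq were called under all 12 alternatives, Atp5g1 under 11, and Ndufc1 and Cox7a2l under 9 each.

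With the reconstituted particle, set against the same controls, edgeR called no member and no gene at all (0 of 79, with a background of 0.00%); 2 members, Atp5j2 and Atp5l, had an unadjusted p under 0.05, and DESeq2 called none. The median over members was 0.00, with 93.7% within 0.3 on the log2 scale, against 84.6% of all genes. Cox6a2 had a log2 fold change of -0.43 ± 0.54, and Ndufa6 stood at 30.5 and 38.2 CPM in reconstituted particle neurons and 35 and 32.5 CPM in controls.

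Set directly against the ApoE particle, 13 of 79 members were lower with the reconstituted particle and 1 was higher (16.5% and 1.27%), while 8.88% of all genes were lower and 11.4% higher, 20.3% in all. Reconstituted particle libraries of 40 members lay below both ApoE particle libraries (50.6%, against 29.1% of all genes) and those of 6 above (7.59%, against 29.9%). This comparison uses the same ApoE particle libraries as the one above, so it is no separate evidence for them. Of the members called, Cox6a2 differed most, at -4.10 ± 0.37 (adjusted p = 1.17e-08). It met the count minimum only through the ApoE particle group, where it is high, so this call is a description of its counts. Next were Ndufa6 at -0.45 ± 0.10 (adjusted p = 0.0018) and Ndufs6, a zinc-binding subunit of complex I, at -0.40 ± 0.10 (adjusted p = 0.00628). Ndufs6 had 21.4 and 22.3 CPM with the reconstituted particle, against 29.5 and 28.3 CPM with the ApoE particle, and the groups did not overlap. Complex I held 7 of the 13, complexes III and V 2 each, and complexes II and IV 1 each. The member that was higher, Atp5a1, differed by 0.12 ± 0.04 (adjusted p = 0.0408) and kept its call in 2 of 12 alternatives. Without reconstituted particle replicate 1 the median over members was -0.063, against -0.011 over all genes, and fewer members were called lower. Of 78 ribosomal protein genes 51 were lower as well.

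The difference between the ApoE particle effects of set 2 and set 1 was tested directly, on the genes listed in both tables. Of 80 members 5 had a higher effect in set 2 and 2 a lower one (6.25% and 2.5%), against 15.1% and 16.5% of all genes, 31.6% in all. Cox6a2 differed by 8.70 ± 0.83 on the log2 scale (adjusted p = 2.0e-07), a value that again depends on the prior count, and Cox6b2 by -1.56 ± 0.26 (adjusted p = 0.000146). The direction of both differences held under all 16 alternatives, at 7.90 to 10.98 for Cox6a2 and -1.89 to -1.27 for Cox6b2. For Cox6a2 each alternative reuses the same counts, so its range is a description. Ndufa6, Ndufs7, Uqcrq and Atp5s also had the higher effect in set 2, and Sdha the lower one. Without set 1 control replicate 2 the median difference over members was 0.195, against -0.021 over all genes. Without set 1 control replicate 1 it was -0.057, against 0.001 over all genes. Leaving out any other library gave a median of 0.04 to 0.136 over members. The number of members called also changed with the library left out. The sets also differed in their controls: astrocyte markers summed to 3280 and 3026 CPM in set 1 controls and 1622 and 1512 CPM in set 2 controls, and microglia markers to 61.0 and 48.0 CPM in set 1 controls but 0.906 and 1.33 CPM in set 2 controls. The labels do not say how the 2 sets differ, so the set and its culture cannot be told apart.

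In the ADM experiment no member was called against controls, and no gene was (0 of 79, with a background of 0.00%, by edgeR). No member had an unadjusted p under 0.05, and DESeq2 called no member, with 277 genes higher and 56 lower. With the replicate number as a block, edgeR called 373 genes higher and 92 lower, and 1 member, Cox6b2 (adjusted p = 0.0245, the lowest of its 10 alternatives, which reach 1). Without ADM replicate 1, 583 genes were called higher and 58 lower, and without ADM replicate 2, 43 and 4, with no member among them. The median over members was 0.03, and the complex medians ran from -0.005 (complex V) to 0.126 (complex II). In 1 member, Sdhc, both ADM libraries lay above both controls, and in 1, Atp5f1, below (1.27% each way, against 21% and 19.5% of all genes).

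The libraries of this experiment were split by replicate and not by treatment. The members summed to 4841 and 6472 CPM in ADM neurons and 4943 and 6190 CPM in controls, with replicate 2 higher in each group: 71 of 79 members were higher in replicate 2 of the ADM neurons and 73 of 79 in replicate 2 of the controls. Cox8a, for instance, had 77.3 and 145 CPM in ADM neurons and 84.1 and 130 CPM in controls. With this spread, standard errors were near 0.35 (Cox6a1, 0.09 ± 0.35), so changes as small as those of set 2 were not detectable here. Cox6a2 had 37 and 11 counts in ADM neurons and 14 and 12 in controls, and Cox6b2 4.28 and 19.7 CPM in ADM neurons and 1.26 and 5.32 CPM in controls. Neither passed the test without the block (1.08 ± 0.74 and 1.86 ± 0.99, adjusted p = 0.694 and 0.637). The Cox6b2 value was 0.357 without ADM replicate 2 and 3.24 without control replicate 2. The ADM library with 19.7 CPM of Cox6b2 also had the highest sum of mural and vessel markers of the neuron libraries (915 CPM, against 23.8 CPM in the other ADM library), and their part in it was not tested. A joint fit tested whether the effect of ADM differed from that of the particle in set 1. By edgeR no member was called (Cox6a2 6.09 ± 1.32, adjusted p = 0.202), nor was any gene (a background of 0.00%). Cox6a2 was the 1 member with an unadjusted p under 0.05, and DESeq2 called no member. Its difference passed the threshold in 2 of 13 alternatives, with the replicate number as a block and without ADM replicate 2 (adjusted p = 0.0128).

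**Figure D4:**
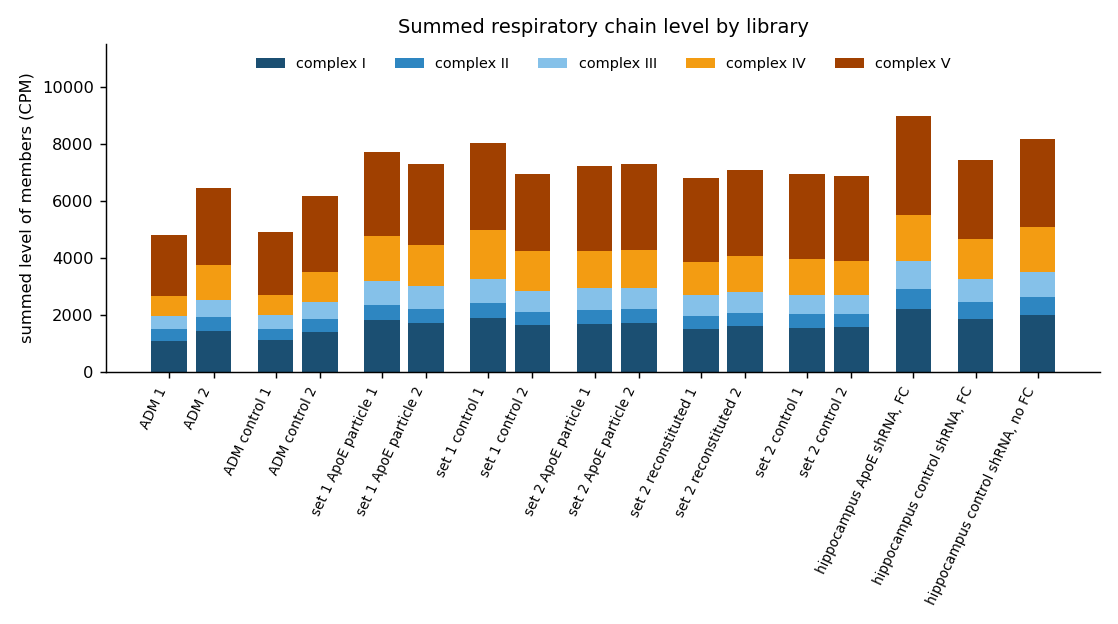
Summed level of the members that passed the count minimum, in CPM, stacked by complex, for each of the 17 libraries. Replicate 2 is higher in both ADM groups (6472 and 6190 CPM), and set 1 control replicate 1 is the highest neuron library (8073 CPM).

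Each hippocampus group is 1 library, so no test was made, and ratios are given for the 77 members that reached 100 counts in one library or the other. Apoe, the gene targeted, had 26148 counts in the ApoE shRNA library with FC, 49755 in the control shRNA library with FC and 30823 in the control shRNA library without FC. Between ApoE shRNA mice with FC and control shRNA mice with FC, nearly all members were higher in the ApoE shRNA library: 67 of 77 (87%, against 48.0% of all genes), with a median log2 ratio of 0.215 against -0.021 for all genes. Medians were 0.206, 0.12, 0.248, 0.192 and 0.215 in complexes I to V. Of complex II 2 of 4 members were higher (50%), against 86.7% to 91.7% of the members of each other complex. No member was past 1.5-fold higher (4.46% of all genes were), and 2 were past 1.5-fold lower (17.9% of all genes were).

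The largest ratio was that of Ndufa10, an accessory subunit of the membrane arm of complex I, with 3064 counts in the ApoE shRNA library and 2006 in the control shRNA library, both with FC (log2 ratio 0.52, exact binomial 95% interval 0.44 to 0.61, counting error only). Uqcrc2, a core protein of complex III, followed at 0.45 (3150 and 2171 counts), and Ndufa4 of complex IV at 0.43 (2988 and 2082 counts). In the other direction stood Uqcrb, a small subunit of complex III, with 251 counts in the ApoE shRNA library and 377 in the control (log2 ratio -0.67, interval -0.91 to -0.44), Atp5l, a membrane subunit of complex V, with 161 and 231 counts (-0.61, interval -0.91 to -0.31), and Ndufb2 with 288 and 378 counts (-0.48). Each of these genes, Uqcrb, Atp5l and Ndufb2, was also the lowest member of its complex per kilobase in the hippocampus libraries. Cox6a2 had 80 counts in the ApoE shRNA library, 59 in the control shRNA library with FC and 52 in the one without FC, and Cox6b2 had 28, 57 and 45. Both are below the minimum of 100 counts. Pvalb was at 28.9, 18.9 and 19.9 CPM in the same order of libraries.

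Mitochondrially encoded subunits went the other way in the ApoE shRNA library. All 10 that reached 100 counts in either library were past 1.5-fold lower than in the control shRNA library with FC, with a median log2 ratio of -1.15, and they summed to 16859 CPM in the ApoE shRNA library, 34639 CPM in the control with FC and 36733 CPM in the control without FC. The smallest difference was that of mt-Nd5 (41363 counts in the ApoE shRNA library, 61172 in the control with FC, -0.65), and the largest that of mt-Nd6, the subunit encoded on the opposite strand to the others (189 and 7079 counts, -5.31). Nuclear copies of mitochondrial sequence can share such reads, so single genes of this group are uncertain.

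Control shRNA mice with FC, set against those without FC, had fewer members on the higher side: 13 of 77 were higher (16.9%, against 53.2% of all genes), with a median log2 ratio of -0.101 against 0.025 for all genes. Ndufs3 (1171 counts with FC, 1505 without FC, -0.33) and Ndufa4 (2082 and 2658 counts, -0.32) were lowest among the subunits, and Sdhd and Sdhc, the membrane anchors of complex II, and Ndufb7 of complex I were highest at 0.13 each. Past 1.5-fold stood 1 name-only gene, Atp5s (193 and 305 counts, -0.63), where 4.46% of all genes were lower and 12.3% higher. The control shRNA library with FC had the highest sums of microglia and astrocyte markers. Its 8 microglia markers summed to 1227 CPM, against 214 CPM in the ApoE shRNA library and 291 CPM in the control without FC. Its 8 astrocyte markers summed to 8067 CPM, against 4880 and 6035 CPM in that order. Mural and vessel markers lay between the others there, at 210 CPM, against 158 and 245 CPM. Excitatory neuron markers summed to 8025 CPM in the ApoE shRNA library, 5841 CPM in the control with FC and 7093 CPM in the control without FC. That list was split by gene. With FC against without FC, 4 of 8 were higher, with 3 past 1.5-fold higher and 0 past 1.5-fold lower. For ApoE shRNA against control shRNA, both with FC, 5 of 8 were higher, with 1 past 1.5-fold higher and 3 past 1.5-fold lower. The members summed to 9028, 7492 and 8214 CPM in these libraries, and the part of the cell markers in that order was not tested. Against the control without FC, 63 of 77 members were higher in the ApoE shRNA library (81.8%, against 51.0% of all genes), with a median of 0.12, and 1 member was past 1.5-fold lower (6.09% of all genes were) and none higher (1.14%).

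**Figure D5:**
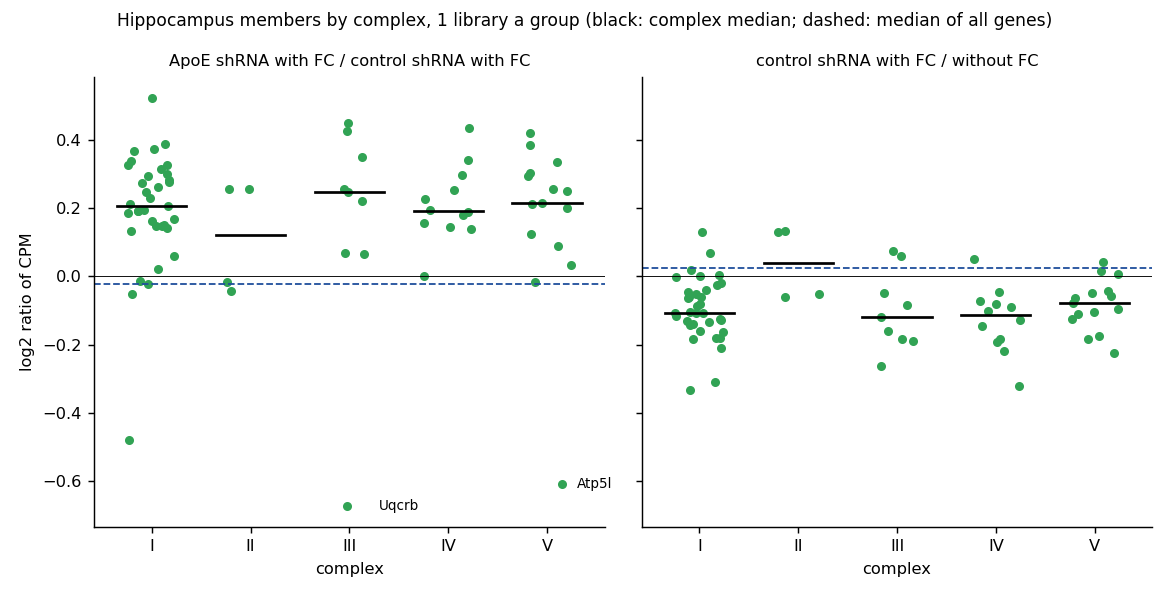
Log2 ratio of CPM for the 75 subunits with at least 100 counts, by complex, for the ApoE shRNA library with FC over the control shRNA library with FC (left) and for the control shRNA library with FC over that without FC (right); black lines are complex medians, the dashed line is the median of all genes, and each group is 1 library. Complex medians lie at 0.12 to 0.25 on the left and, but for complex II (0.04), below 0 on the right.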

How the data were processed

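The deposited files hold raw gene counts, made by the authors per the submitters' processing notes with HISAT2 2.1.0, Bowtie2 2.2.3 and HTSeq 0.6.0 on mm10. The sources used here do not give their roles, the strand setting or the handling of reads with several matches. Libraries were prepared from 2 μg of total RNA. Members were found by gene name. In set 2, 1489 listed genes had blank counts and were left out, with 0 members by name among them. The members and gene lists were chosen with earlier results of these data known.

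Neuron counts were filtered with filterByExpr, scaled by TMM and tested with edgeR 4.0.16 (quasi-likelihood F test, robust) in R 4.3.3, with limma 3.58.1 loaded. P-values were adjusted by Benjamini-Hochberg over all genes tested, with a threshold of 0.05. Set 2 was fitted over its 3 groups, and the differences between experiments in 1 joint fit. The standard error of a log2 fold change was derived from its F statistic. The steps were tested on simulated data with known changes. Alternatives were other scaling, DESeq2 1.42.0, other filters, a replicate block and leaving out each library in turn. A leave-one-out fit with 1 library in a group takes that library to vary like the others. CPM use TMM factors, in hippocampus library totals. Hippocampus ratios add a prior count of 0.5, take genes that reach 100 counts in either library, and use a 1.5-fold threshold. Exon lengths come from GENCODE M21 and join all annotated exons of a gene.

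The text names, for each comparison, the called member of each complex with the lowest adjusted p, the 6 called members with the largest change, the isoform families, the 3 largest hippocampus ratios each way, up to 4 called genes of each other list and the members of counts of 5 or fewer. Values of Ndufs1, Ndufs7, Ndufs3, Uqcrc1, Sdha, Atp5b and Cox8a outside that rule were chosen after they were seen. Intervals cover counting error only.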

Additional observations from a re-analysis of the deposited data

Results flagged for a closer look

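The effect of the ApoE particle against its controls differed between set 2 and set 1 for 7 members, by edgeR's quasi-likelihood test of the difference with adjustment over all genes. Differences are set 2 minus set 1 on the log2 scale. Cox6a2 differed by 8.70 ± 0.83 (adjusted p = 2.0e-07), with an effect of 3.67 in set 2 and -5.05 in set 1. All alternatives reuse the same Cox6a2 counts, so its calls describe those counts. Cox6b2 differed by -1.56 ± 0.26 (adjusted p = 0.000146), with 0.26 in set 2 and 1.79 in set 1. Atp5s differed by 0.65 ± 0.20 (adjusted p = 0.0162), Ndufa6 by 0.58 ± 0.18 (adjusted p = 0.0249), Ndufs7 by 0.39 ± 0.14 (adjusted p = 0.0367) and Uqcrq by 0.39 ± 0.13 (adjusted p = 0.0246). Their effects were 0.42, 0.47, 0.24 and 0.31 in set 2, in that order, and -0.26, -0.14, -0.17 and -0.10 in set 1, where none passed the test. Atp5s did not pass in set 2 either (adjusted p = 0.0602). Sdha differed by -0.29 ± 0.09 (adjusted p = 0.0187), with -0.09 in set 2 and 0.17 in set 1, neither of which passed the test. Each group holds 2 libraries, and of 16 alternatives the difference kept its call in all for Cox6a2 and Cox6b2, in 13 for Atp5s, 11 for Sdha, 10 each for Ndufa6 and Uqcrq, and 8 for Ndufs7, whose adjusted p reached 0.176.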

How the results depend on the processing

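No named member that was called changed sign, but the balance of higher and lower members did turn in set 1 and in set 2 minus set 1 when single libraries were left out. Of the counts of members called, 143 stayed within 1.5 times the count reported, while 45 moved. Many of the 143 were counts of 0 that stayed at 0, as in the ADM experiment and the reconstituted particle against controls. Scaling by library totals only gave 3 members higher in set 1, where 3832 of 16475 genes were. It gave 0 higher for the reconstituted against the ApoE particle (1725 of 16388 genes) and 2 higher for set 2 minus set 1 (2060 of 17272 genes). This scaling shifts the median of all genes in set 1 to 0.098. Without a filter on low counts, 2 members were lower in set 1, where 3123 of 28995 genes were. For the reconstituted against the ApoE particle 0 were higher (1928 of 28237 genes). For set 2 minus set 1, 9 were higher and 1 lower (2975 and 2824 of 27022 genes). DESeq2 gave 9 higher with the ApoE particle in set 2 (1089 of 16388 genes). It gave 0 higher for the reconstituted against the ApoE particle (1358 of 16388 genes). In hippocampus a 2-fold threshold left 0 members lower in both comparisons, and TMM factors gave 1 higher and 1 lower for the ApoE shRNA library against the control with FC. The cause of these moves was not tested.

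Leaving out 1 library at a time gave 1 to 22 members higher and 1 to 18 lower in set 1, 9 to 19 higher in set 2, 0 higher and 8 to 16 lower for the reconstituted against the ApoE particle, 2 to 23 higher and 1 to 5 lower for set 2 minus set 1, and 0 to 1 higher for ADM minus set 1. In set 1 the split was 22 higher and 1 lower without control replicate 1 (median 0.126) and 1 higher and 18 lower without control replicate 2 (median -0.098). For set 2 minus set 1 it was 2 higher and 5 lower without set 1 control replicate 1 (median -0.057), and 23 higher and 2 lower without set 1 control replicate 2 (median 0.195).

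The labels number replicates but do not say what a number shares. Deviations of same-numbered libraries were correlated over all genes tested, with 2 libraries a group. The values were 0.484 in the ADM experiment, 0.023 in set 1, and -0.023, -0.075 and 0.042 in set 2. With the replicate number as a block, 1 member was higher with ADM (Cox6b2, with 373 of 16191 genes) and 2 were lower in set 1 (3055 of 16475 genes). In set 2, 16 were higher with the ApoE particle (1436 of 16388 genes) and 1 with the reconstituted particle (1 of 16388 genes). For the reconstituted against the ApoE particle 0 were higher (1667 of 16388 genes). For set 2 minus set 1, 8 were higher (2581 of 17272 genes), and for ADM minus set 1, 1 was (336 of 17292 genes).

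With 2 libraries a group, small changes are found only where libraries agree closely, and hippocampus ratios carry no replicate error.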
